A study of Mus musculus with 5 samples.

Results

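The aryl hydrocarbon receptor (AHR) pathway was followed through single-cell RNA libraries of sorted mouse liver cells by 7 genes taken from a fixed list out of the 31053 genes counted. They are the receptor (Ahr), its nuclear partner (Arnt), the 2 feedback repressors (Ahrr and Tiparp) and 3 target genes (Cyp1b1, Cyp1a1 and Nqo1). The cells were sorted by stored vitamin A (VitA), which fluoresces in hepatic stellate cells, and by a green reporter that Cre under the Col1a1 promoter switches on. Col1a1+ therefore records that the promoter was on at some time, not the RNA at the time of sorting. All mice were males that carried Rosa26mTmG;Col1a1-Cre on C57BL/6J. They had been given diethylnitrosamine (DEN), a liver carcinogen, at 10 mg/kg into the peritoneum at 2 weeks of age and then a liquid Western alcohol diet (WAD) with 3.5% ethanol by volume for 5 months from 6 weeks of age, or saline at the same age and chow over the same months. The 5 libraries were VitA+Col1a1+ DEN+WAD, VitA-Col1a1+ DEN+WAD, VitA+Col1a1+ chow, VitA-Col1a1+ chow and a library labelled VitA-Col1a1- DEN+WAD. Each group held 1 library, and how many mice went into it is not given in the sources used here. Differences between groups were therefore described with no test, and every interval covers counting error only.

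AHR is a transcription factor that waits in the cytoplasm with HSP90 and its co-chaperones, and that moves to the nucleus when a ligand binds, such as a dioxin, a plant indole or a product of tryptophan. There it pairs with ARNT and binds DNA at a short core, GCGTG, known as the dioxin or xenobiotic response element. CYP1A1 and CYP1B1 are cytochrome P450 enzymes that oxidise the ligands themselves as well as oestrogens, retinoids and fatty acids, and NQO1 is a quinone reductase that answers to NRF2 too. AHRR competes with AHR for ARNT, and TIPARP, a mono-ADP-ribosyltransferase, marks AHR for loss, so that each closes a feedback loop. In liver the pathway is best known for Cyp1a1 in hepatocytes and endothelium, while CYP1B1 is the family member of mesenchymal cells.

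Across the libraries there were 259 to 10481 cells and 6145748 to 149936344 unique molecular identifiers (UMIs), with medians of 9105.5 to 24077 UMIs per cell, and 48 of the cell barcodes occurred in more than 1 library, at most 21 in any pair. Cells were called mesenchymal when Dcn, Col3a1 and Colec11 together gave 20 or more UMIs per 10000, endothelial with 3 or more of Pecam1, Cdh5, Kdr, Stab2 and Ptprb, and C1qa-positive with a C1qa UMI. Cells that met more than 1 rule were left out, which took 2282 cells (23.1%) of the library labelled VitA-Col1a1- and at most 48 cells of any other. The mesenchymal class held 10209, 2179, 244, 614 and 3692 cells in the order of libraries above, the endothelial class 177, 438, 9, 36 and 1877, and the C1qa-positive class 1042 cells, all of them in the library labelled VitA-Col1a1-. All 8 endothelial markers had UMIs in every mesenchymal class, at a summed 44.7 to 100 UMIs per 1000000 (CPM), against 8392 to 12352 CPM in the endothelial classes. The label VitA-Col1a1- went against its RNA, because Col1a1 stood at 2043 CPM in the mesenchymal cells of that library and at 1129 CPM in those of VitA-Col1a1+ DEN+WAD.

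In GRCm38, Cyp1b1 (ENSMUSG00000024087) lies on the minus strand at chr17:79701537-79715061, Cyp1a1 (ENSMUSG00000032315) on the plus strand at chr9:57687928-57703824, Ahr (ENSMUSG00000019256) on the minus strand at chr12:35497974-35535038 and Ahrr (ENSMUSG00000021575) on the minus strand at chr13:74211118-74292331. Arnt (ENSMUSG00000015522) lies on the plus strand at chr3:95434388-95497240, Tiparp (ENSMUSG00000034640) on the plus strand at chr3:65528410-65555518 and Nqo1 (ENSMUSG00000003849) on the minus strand at chr8:107388225-107403206. The 250 bases before the RefSeq start of 6 members (build GRCm38.p6) were searched on both strands for GCGTG, the core that AHR with ARNT is known to bind. It occurred once each before Cyp1b1, Cyp1a1, Arnt and Tiparp, in 3 places before Ahrr and not before Nqo1, and 28.2% of 32851 windows of that length held it. The longer TNGCGTG, which contains the core, was found in 4.10% of windows and, of the members, before Ahrr. The antioxidant response core TGACNNNGC, through which NRF2 acts, was found in 10.2% of windows and of the members before Arnt, in 2 places. 4 of the windows are printed 5′ to 3′ on the strand of the gene, for the 2 P450 targets and the 2 repressors, whose RNA levels are set apart by cell type in what follows, with the core in capitals (CACGC where it reads on the other strand).
Cyp1b1, chr17:79715062-79715311, minus strand: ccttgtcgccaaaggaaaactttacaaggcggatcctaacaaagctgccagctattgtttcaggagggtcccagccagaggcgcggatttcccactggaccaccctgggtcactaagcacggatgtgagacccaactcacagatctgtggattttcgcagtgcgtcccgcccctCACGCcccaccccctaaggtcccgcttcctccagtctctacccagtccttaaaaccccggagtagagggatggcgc
Cyp1a1, chr9:57697363-57697612, plus strand: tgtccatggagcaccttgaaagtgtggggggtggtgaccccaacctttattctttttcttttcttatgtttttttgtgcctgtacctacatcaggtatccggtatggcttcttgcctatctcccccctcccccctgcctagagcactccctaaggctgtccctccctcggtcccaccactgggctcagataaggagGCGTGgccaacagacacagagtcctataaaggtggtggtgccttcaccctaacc
Tiparp, chr3:65528197-65528446, plus strand: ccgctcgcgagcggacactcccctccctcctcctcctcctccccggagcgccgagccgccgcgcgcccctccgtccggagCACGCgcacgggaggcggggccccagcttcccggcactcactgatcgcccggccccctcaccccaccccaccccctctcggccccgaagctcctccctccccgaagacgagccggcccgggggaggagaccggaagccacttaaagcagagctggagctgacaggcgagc
Ahrr, chr13:74292332-74292581, minus strand: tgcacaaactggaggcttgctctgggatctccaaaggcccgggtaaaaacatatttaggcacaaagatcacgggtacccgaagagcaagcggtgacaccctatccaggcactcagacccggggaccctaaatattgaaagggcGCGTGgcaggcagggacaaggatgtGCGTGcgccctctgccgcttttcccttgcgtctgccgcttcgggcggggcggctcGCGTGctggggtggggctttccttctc
The cores lie 76 bases before the start for Cyp1b1, 54 for Cyp1a1, 170 for Tiparp and 107, 82 and 27 for Ahrr. A match describes the letters only.

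The receptor was highest in endothelial cells of every library. There Ahr was found at 111 CPM (VitA+Col1a1+ DEN+WAD), 114 CPM (VitA-Col1a1+ DEN+WAD), 198 CPM in VitA+Col1a1+ chow (9 cells), 200 CPM in VitA-Col1a1+ chow and 87.8 CPM in the library labelled VitA-Col1a1-. In mesenchymal cells of the same libraries it stood at 10.1, 8.09, 12.0, 5.45 and 13.9 CPM, and no endothelial value came near a mesenchymal one. The ratio of endothelial to mesenchymal Ahr was 11, 14.0, 36.7 and 6.33 in the 4 libraries whose endothelial class held over 30 cells, in the same order without VitA+Col1a1+ chow. Of all genes with 50 or more UMIs, 33.5%, 32.4%, 29.8% and 27.4% were 1.5-fold or more higher in endothelial than in mesenchymal cells of these libraries. With overlaps kept, Ahr in the library labelled VitA-Col1a1- was 67.5 CPM in endothelial and 19.2 CPM in mesenchymal cells, closer than the 87.8 and 13.9 CPM above. Among cells thinned to 10000 UMIs each, 61.0% of the endothelial cells of VitA-Col1a1+ DEN+WAD had an Ahr UMI (227 of 372) and 7.47% of its mesenchymal cells (150 of 2009); unthinned, the shares were 69.2% and 12.0%. The C1qa-positive cells lay between the classes, at 26.5 CPM, 1.91 times the mesenchymal level of their library (1.67 to 2.19). This class also carried 10789 CPM of hepatocyte and 527 CPM of erythroid markers, against 674 and 196 CPM in those mesenchymal cells. The part of that RNA in its levels was not tested.

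The partner Arnt, which also serves the hypoxia factors, was spread far more evenly. Its mesenchymal level was 41.9, 47.9, 62.5, 60.2 and 45.3 CPM in the order of libraries above. Its endothelial level was 66.0, 63.4, 74.3, 56.7 and 56.5 CPM. The endothelial to mesenchymal ratio was thus 1.58, 1.32, 0.943 and 1.25 in the 4 libraries compared, a far smaller range than that of Ahr. C1qa-positive cells had the lowest level, 24.3 CPM.

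The 2 feedback repressors differed in where they were found. Ahrr had only 9 UMIs in the mesenchymal and 2 in the endothelial cells of all 5 libraries together. Another 13 of the 36 UMIs in all cells lay in cells that met more than 1 rule. In C1qa-positive cells there were 12, at 0.878 CPM against 0.0512 CPM in the mesenchymal cells of the same library, a ratio of 17.2 (3.82 to 158). With overlaps kept these levels were closer, at 0.596 and 0.102 CPM. Each of these 12 cells had 1 Ahrr UMI. All 12 had UMIs of Csf1r, the receptor that defines the macrophage lineage, 9 had Clec4f, a lectin of Kupffer cells, and 7 had Vsig4. None had Cd3e of T cells or Cd79a of B cells. The cells were taken from a class defined by C1qa, itself a macrophage marker, so these genes describe them and test nothing.

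Tiparp was found in all classes of cells. Mesenchymal levels, in the order of libraries above, were 253, 339, 261, 367 and 183 CPM. Both VitA- Col1a1+ libraries were thus above both VitA+ libraries, and the library labelled VitA-Col1a1- was below all 4. Endothelial levels were 155, 187, 80.5, 288 and 174 CPM. The endothelial level was lower than the mesenchymal in each library, by a ratio of 0.612, 0.551, 0.785 and 0.95 where the endothelial class held over 30 cells, which is opposite in direction to Ahr. C1qa-positive cells had 115 CPM.

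Among the targets, Cyp1b1 was highest in the mesenchymal cells of the VitA- gates. Its mesenchymal level was 5.27 CPM (4.91 to 5.66; 775 UMIs) in VitA+Col1a1+ DEN+WAD and 47.7 CPM (45.5 to 49.9; 1885 UMIs) in VitA-Col1a1+ DEN+WAD. In chow it was 0 of 5822332 UMIs in VitA+Col1a1+, which allows up to 0.515 CPM at a floor of 3 UMIs (exact upper limit 0.634), and 69.3 CPM (65.0 to 73.8; 979 UMIs) in VitA-Col1a1+. The library labelled VitA-Col1a1- had 43.5 CPM (41.5 to 45.6; 1700 UMIs). The 3 VitA- libraries were thus all high and the 2 VitA+ libraries low, with no interval shared between them.

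The same split was seen in the shares of cells at equal depth. A Cyp1b1 UMI was present in 276 of 9097 mesenchymal cells thinned to 10000 UMIs (3.03%; 3.99% unthinned) of VitA+Col1a1+ DEN+WAD, in 501 of 2009 (24.9%; 34.7%) of VitA-Col1a1+ DEN+WAD and in 207 of 583 (35.5%; 49.7%) of VitA-Col1a1+ chow. In VitA+Col1a1+ chow it was 0 of 237 cells, which allows up to 1.27% at a floor of 3 cells (exact upper limit 1.54%), and in the library labelled VitA-Col1a1- 487 of 1984 (24.5%; 22.3%). Free RNA could be read only in part. At the same depth 0.191% of the C1qa-positive cells of the library labelled VitA-Col1a1- had a Cyp1b1 UMI. Cells that also met the mesenchymal rule had been left out of that class, and the other libraries had no such class. With overlaps kept, C1qa-positive cells held 707 Cyp1b1 UMIs, against 3 without. Of the endothelial cells, 6.18% had one in VitA-Col1a1+ DEN+WAD, and 3 of 56 (5.36%, 1.12 to 14.9%) in VitA+Col1a1+ DEN+WAD, beside 3.03% of its mesenchymal cells. The endothelial class had Cyp1b1 of its own, as described further on. Per cell the counts reached 9, 37, 22 and 11 UMIs in the 4 libraries with Cyp1b1, and 35.4% to 56.8% of the positive cells had a single UMI.

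Within the mesenchymal class, Cyp1b1 was read in cells split by genes of stellate cells and of portal fibroblasts. At equal depth in VitA-Col1a1+ DEN+WAD, cells with Lrat, the retinol esterase of stellate cells, and no UMI of the fibroblast genes Thy1 or Fbln2 had 36.3 CPM (33.3 to 39.5; 1446 cells). Cells with Thy1 or Fbln2 and no Lrat had 50.0 CPM (39.1 to 63.1; 142 cells). In VitA-Col1a1+ chow the same subsets had 53.9 CPM (45.8 to 63.0; 295 cells) and 108 CPM (85.8 to 134; 76 cells). Both subsets were thus higher in chow than in DEN+WAD, and in the library labelled VitA-Col1a1- they had 41.6 CPM (1444 cells) and 83.6 CPM (73 cells). Cells with none of the 3 genes were high as well. They had 65.6 CPM (56.8 to 75.3), 62.0 CPM (48.1 to 78.8) and 76.3 CPM (59.9 to 95.8) in the same libraries, on 305, 108 and 97 cells. Cells with Lrat and a fibroblast gene had 57.8, 73.1 and 41.4 CPM. In VitA+Col1a1+ DEN+WAD cells with Lrat and no Thy1 or Fbln2 made up 8984 of the 9097 cells and had 3.85 CPM. There the 77 cells with Lrat and a fibroblast gene had 48.1 CPM (33.8 to 66.2), and the 33 with none of the 3 genes 30.3 CPM (14.5 to 55.7). Fbln2 was not confined to fibroblasts. In DEN+WAD it stood at 33.3 (VitA+Col1a1+), 38.2 (VitA-Col1a1+) and 49.6 CPM (labelled VitA-Col1a1-) in endothelial cells. In mesenchymal cells of these libraries it was 1.45, 10.5 and 12.9 CPM. In VitA-Col1a1+ chow it was 12.6 and 25.5 CPM. A single Lrat UMI can be free RNA: at the same depth 6.25% to 20.9% of the endothelial cells, which should lack Lrat, had one, against 68.4% to 99.6% of the mesenchymal cells of the same libraries, with medians of 11508.5 to 17883 and of 13674 to 22956 UMIs before thinning. At least 3 Lrat UMIs, a bar chosen after the data were seen, were present in 0 of 372 endothelial cells of VitA-Col1a1+ DEN+WAD, 0 of 32 of VitA-Col1a1+ chow and 5.41% of those of the library labelled VitA-Col1a1-. Mesenchymal cells past this bar with no Thy1 or Fbln2 had 28.8 CPM of Cyp1b1 (25.9 to 32.1; 1196 cells), 43.2 CPM (34.2 to 53.8; 183 cells) and 36.7 CPM (33.4 to 40.3; 1239 cells) in these libraries.

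Cyp1a1, the classical reporter of AHR activation, was rare and lay mostly in endothelial cells. Of 38 UMIs in all libraries, 27 lay in the endothelial class and 8 in the mesenchymal. In VitA-Col1a1+ DEN+WAD 5 of 438 endothelial cells held 23 UMIs. All 5 had UMIs of Vwf, the von Willebrand factor of larger vessels, 71 in sum, whereas 42 of the 438 endothelial cells had any (9.59%; exact interval 7.0 to 12.7%). None of the 5 had Rspo3, which marks central vein endothelium and was present in 21.2% of the endothelial cells of that library, or Cyp1b1, while 2 had Ahr and 4 had Tiparp. The 2 Cyp1a1 cells of VitA+Col1a1+ DEN+WAD and the 1 of VitA-Col1a1+ chow likewise had Vwf and no Rspo3 (found in 14.1% and 13.9% of the endothelial cells there), and the chow cell was the only 1 of 36 endothelial cells with Vwf. The library labelled VitA-Col1a1- had 0 Cyp1a1 UMIs in 1877 endothelial cells, at least 18.1-fold lower than VitA-Col1a1+ DEN+WAD against a floor of 3 UMIs (the exact interval of the ratio ends at 0.0736), with 11 of the 23 UMIs in 1 cell. Yet 323 of those 1877 cells (17.2%, 15.5 to 19.0%) had Vwf, so cells with Vwf and no Cyp1a1 were common there. Vwf and Rspo3 were chosen after their values were seen.

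Nqo1 was low everywhere. Its mesenchymal level was 3.26, 5.34, 4.81, 7.36 and 2.30 CPM in the order of libraries above, and its endothelial level 5.66, 5.39, 12.4 (9 cells, 2 UMIs), 9.45 and 5.64 CPM. The endothelial level was 2.45 times the mesenchymal (1.80 to 3.33) in the library labelled VitA-Col1a1-, and in the other 3 libraries compared the interval of that ratio held 1. With the endothelial classes compared, 4 of 5 members tested were 1.5-fold or more higher than in mesenchyme in VitA+Col1a1+ DEN+WAD, 1 of 5 in each VitA-Col1a1+ library and 2 of 5 in the library labelled VitA-Col1a1-, against the 33.5%, 32.4%, 29.8% and 27.4% of all genes given above. Of the 4 in VitA+Col1a1+ DEN+WAD, Cyp1b1 (0.996 to 2.97) and Nqo1 (0.789 to 3.32) had intervals that held 1. Ahr alone was past 1.5-fold in every one of the 4 libraries.

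**Figure D1:**
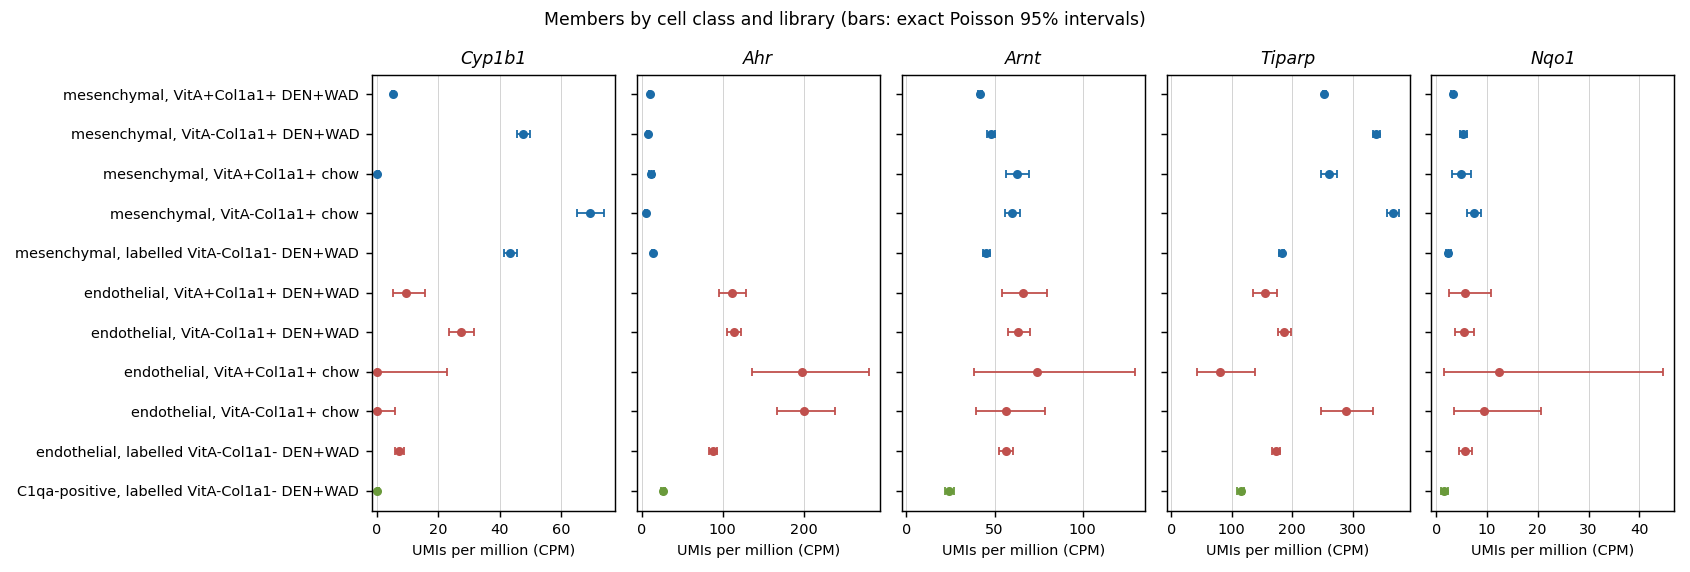
Level of 5 members in CPM (x axes, linear, 1 scale per gene) in each cell class and library (y axis), with exact Poisson 95% intervals. Cyp1b1 is highest in mesenchymal cells of the VitA- libraries (43.5 to 69.3 CPM), and Ahr in endothelial cells (87.8 to 200 CPM).

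Whether the carcinogen and diet moved the pathway was asked within each gate. In VitA+Col1a1+ mesenchymal cells Cyp1b1 went from 0 UMIs in chow to 5.27 CPM in DEN+WAD, at least 10.2-fold higher against the floor (the exact interval begins at 8.31). None of the other members tested was past 1.5-fold, with DEN+WAD over chow at 0.842 for Ahr (0.663 to 1.09), 0.670 for Arnt (0.603 to 0.747), 0.967 for Tiparp (0.919 to 1.02) and 0.678 for Nqo1 (0.463 to 1.03). So 1 of 5 members tested was higher and 0 lower, against 10.9% of all genes higher and 11.8% lower. Marker sums moved as well. Portal fibroblast markers stood at 50.6 CPM in DEN+WAD and 22.0 CPM in chow, smooth muscle markers at 855 and 481 CPM and stellate markers at 7981 and 9416 CPM. Among cells with Lrat and no Thy1 or Fbln2, Cyp1b1 was 3.85 CPM (3.46 to 4.28) in DEN+WAD and 0 in chow (exact upper limit 1.57). The part of cell makeup in the Cyp1b1 difference of this gate was not tested. TMM, a scaling that trims extreme genes, shifted all log2 ratios of this comparison by 0.23 and those of the VitA- gate by 0.15, took the higher genes from 48.0% to 73.2% and from 33.0% to 50% of those past 1.5-fold, and put Tiparp above chow in both gates, at log2 ratios of 0.18 and 0.0313.

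In VitA-Col1a1+ mesenchymal cells Cyp1b1 was the other way round, at 0.688 of the chow level (0.637 to 0.744). Ahr was 1.49 times the chow level (1.15 to 1.93). Arnt stood at 0.796 (0.734 to 0.864), Tiparp at 0.924 (0.895 to 0.954) and Nqo1 at 0.725 (0.571 to 0.926). None of the 5 was past 1.5-fold, against 8.08% of all genes higher and 16.4% lower. With TMM, Ahr was past it, at a log2 ratio of 0.72 in place of 0.57. Cell makeup moved with this contrast: the 6 smooth muscle markers summed to 2643 CPM in DEN+WAD and 4494 CPM in chow, the 8 portal fibroblast markers to 1855 and 3680 CPM and the 8 stellate markers to 3899 and 2293 CPM, all with UMIs in both. Among cells with Lrat and no Thy1 or Fbln2, Cyp1b1 was 36.3 CPM in DEN+WAD and 53.9 CPM in chow. The part of cell makeup in the Cyp1b1 difference was not tested.

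The other split was between the gates. In DEN+WAD Cyp1b1 was 9.04 times as high in VitA- as in VitA+ mesenchymal cells (8.31 to 9.84), and in chow at least 134-fold higher (the exact interval begins at 109). Ahr was lower in the VitA- gate, at 0.799 (0.706 to 0.902) in DEN+WAD and 0.453 (0.324 to 0.636) in chow. Tiparp was higher, at 1.34 (1.32 to 1.37) and 1.40 (1.33 to 1.49). Nqo1 was higher at 1.64 (1.39 to 1.93) and 1.53 (1.0 to 2.41), and Arnt stood at 1.14 and 0.962. In DEN+WAD 2 of 5 members were past 1.5-fold higher and 0 lower, against 16.8% of genes higher and 6.96% lower, and in chow 2 higher and 1 lower, against 20.7% and 11.9%. With TMM, Nqo1 was no longer past 1.5-fold in either, at log2 ratios of 0.54 in place of 0.71 in DEN+WAD and 0.53 in place of 0.61 in chow. The portal fibroblast markers, summed, were 50.6 CPM in VitA+ and 1855 CPM in VitA- DEN+WAD. In chow they were 22.0 and 3680 CPM, and Fbln2, Mgp and Cd34 were at 0 in the VitA+ cells. The smooth muscle markers were 855 and 2643 CPM in DEN+WAD and 481 and 4494 CPM in chow. The stellate markers were 7981 and 3899 CPM in DEN+WAD and 9416 and 2293 CPM in chow. Among cells with Lrat and no Thy1 or Fbln2 Cyp1b1 was 3.85 and 36.3 CPM in DEN+WAD, and the part of cell makeup was not tested. Over all cells, endothelial ones included, the log2 ratio of Ahr in DEN+WAD was 1.01, higher in the VitA- gate. With TMM the higher genes were 56.1% in place of 70.7% of those past 1.5-fold in DEN+WAD.

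Between the 2 VitA- libraries of DEN+WAD liver, mesenchymal Cyp1b1 was at 0.913 (0.854 to 0.975) in the library labelled VitA-Col1a1- over VitA-Col1a1+. Ahr was 1.71 times as high there (1.49 to 1.97), while Tiparp was at 0.538 and Nqo1 at 0.432. So 1 of 5 members was higher and 2 lower, against 14.8% and 13.4% of genes. The 5 hepatocyte markers summed to 674 CPM in these mesenchymal cells and to 14 CPM in VitA-Col1a1+ DEN+WAD. In the same order macrophage markers summed to 72.7 and 2.30 CPM and erythroid markers to 196 and 0.101 CPM. Smooth muscle markers summed to 4873 and 2643 CPM, portal fibroblast markers to 1280 and 1855 CPM and stellate markers to 4374 and 3899 CPM. The part of foreign RNA and of cell makeup in the ratios was not tested. The header of this library names another version of the counting software than the other 4, and that difference and the gate cannot be told apart.

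In endothelial cells of the VitA-Col1a1+ gate, the receptor and Tiparp were lower with treatment. Ahr was 0.568 of the chow level (0.469 to 0.691) and Tiparp 0.649 (0.555 to 0.762). Arnt stood at 1.12 (its interval held 1). Cyp1b1 had 172 UMIs in 30 of 438 cells in DEN+WAD and 0 in 36 cells in chow. Counted by UMIs the bound against the floor was 5.77-fold (the exact interval begins at 4.64). Counted by cells the libraries were not apart. At equal depth 23 of 372 cells (6.18%, 3.96 to 9.13%) had a Cyp1b1 UMI in DEN+WAD. In chow it was 0 of 32, with an exact upper limit of 10.9%. Vwf, which went with endothelial Cyp1b1 as described further on, was present in 9.59% and 2.78% of the endothelial cells. Of 4 members tested 1 was higher and 2 lower past 1.5-fold, and 26.7% of all genes were past it in either direction, with only 36 cells on the chow side.

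**Figure D2:**
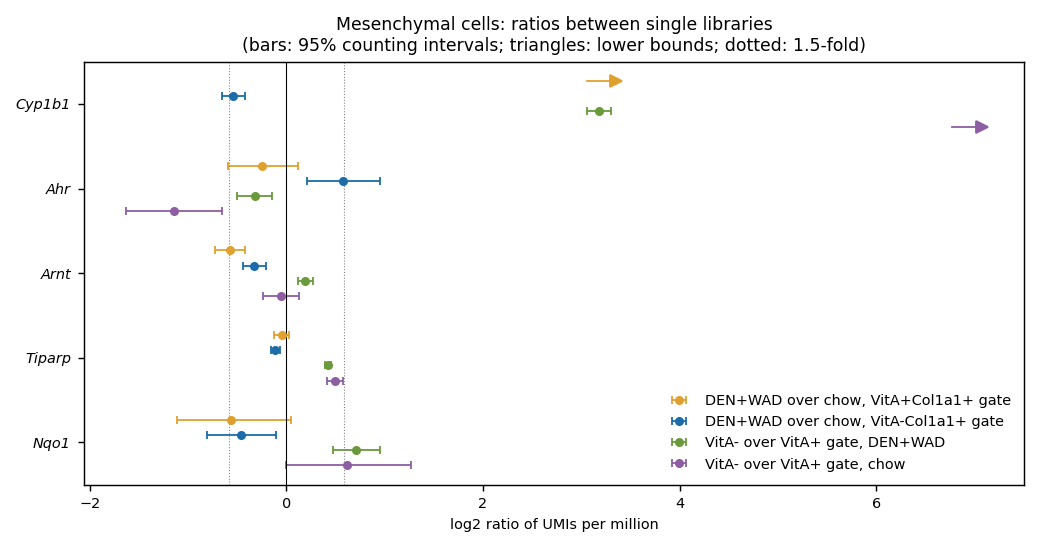
Log2 ratio of CPM in mesenchymal cells (x axis) for 5 members (y axis) and 4 comparisons of single libraries (colours), with 95% counting intervals; triangles are lower bounds where Cyp1b1 had 0 UMIs in the reference, and dotted lines mark 1.5-fold. Cyp1b1 is the only member past 2 on this axis, and Ahr lies on the lower side in both gate comparisons.

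The wider pathway, read from 7 lists chosen by role, gave the following in mesenchymal cells. Of the AHR chaperones, all 4 were measured; in VitA-Col1a1+ cells 2 were higher in DEN+WAD than in chow, Hsp90aa1 at 2.47 and Hsp90ab1 at 1.57, the inducible and the constant form of the HSP90 that holds AHR in the cytoplasm, against 8.08% of all genes higher. The same 2 were lower in the VitA- than in the VitA+ gate, at 0.486 and 0.654 in DEN+WAD and at 0.189 and 0.458 in chow, against 6.96% and 11.9% of all genes lower. Of the ARNT partners and relatives, 4 of 6 were measured, and Epas1, which encodes the hypoxia factor HIF-2α, was lower in VitA- cells at 0.588 in DEN+WAD and 0.373 in chow, and in VitA+Col1a1+ cells at 0.545 in DEN+WAD over chow with Npas2 at 0.609. In the library labelled VitA-Col1a1-, Epas1 was higher at 1.54, and the clock genes Npas2 and Arntl were lower at 0.503 and 0.527, against VitA-Col1a1+ DEN+WAD. Of the 8 coregulators, Ncoa3, a coactivator, was lower with DEN+WAD in VitA-Col1a1+ cells at 0.507, and it was 1.74 times as high in VitA- as in VitA+ chow cells.

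Of 12 further AHR target genes, 4 or 5 reached 50 UMIs. Socs2, a brake on cytokine signalling, was lower in DEN+WAD than in chow in either gate, at 0.633 in VitA+ and 0.611 in VitA- cells. It was higher in the VitA- gate at 1.86 in DEN+WAD and 1.93 in chow, and 2.04 times as high in the library labelled VitA-Col1a1- as in VitA-Col1a1+ DEN+WAD. Slc7a5, an amino acid carrier that brings in tryptophan, was higher in the VitA- gate at 2.77 and 5.36. Aldh3a1, an aldehyde dehydrogenase, was 2.04 times as high in the VitA- gate in DEN+WAD and at 0.126 in the library labelled VitA-Col1a1-. With DEN+WAD in VitA+ cells Aldh3a1 (4.04) and Slc7a5 (1.95) had intervals that held 1, with 1 and 4 UMIs in chow.

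Genes for tryptophan-derived ligands were sparse. Il4i1, an oxidase of aromatic amino acids, had 55 UMIs in VitA-Col1a1+ DEN+WAD, 12.8 times the level of the VitA+ gate and 4.91 times that of chow (1.81 to 18.7). Tdo2, the tryptophan dioxygenase, was lower in VitA+Col1a1+ DEN+WAD than in chow at 0.412, lower in the VitA- gate of DEN+WAD at 0.487 and 5.57 times as high in the library labelled VitA-Col1a1- as in VitA-Col1a1+, while Il4i1 (0.350) and Afmid (0.422) were lower there; Afmid was 2.38 times as high in the VitA- gate of DEN+WAD. Of the NRF2 targets 7 of 8 were measured; 5 were higher in the VitA- gate in chow, Gsr among them at 1.81, against 20.7% of all genes, and 0 in DEN+WAD, against 16.8%, and Me1 was at 0.638 with DEN+WAD in VitA-Col1a1+ cells. Por, which passes electrons to every microsomal P450, was 2.07 times as high in VitA- as in VitA+ chow cells, and 2 of the 4 electron donors for P450 were higher there, against the same 20.7%.

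Whether cells with Cyp1b1 RNA carried more of the other members was asked at equal depth. Counted by UMIs, Tiparp alone had an interval above 1 in every library. Each mesenchymal cell was thinned to 10000 UMIs and called Cyp1b1-positive with 1 or more Cyp1b1 UMIs. In VitA-Col1a1+ DEN+WAD Tiparp had 379 CPM in the 501 positive and 337 CPM in the 1508 negative cells, a ratio of 1.13 (1.07 to 1.19). The ratio was 1.24 (1.13 to 1.35; 422 and 341 CPM) in VitA-Col1a1+ chow, 1.29 (1.20 to 1.39; 213 and 165 CPM) in the library labelled VitA-Col1a1- and 1.13 (1.05 to 1.21; 291 and 258 CPM) in VitA+Col1a1+ DEN+WAD. Tiparp was above 1 in 20 of 20 draws of the thinning in each library, with an interval above 1 in 20, 20, 20 and 17 of them in the order given, yet never by 1.5-fold. The draws reuse the same cells and are not replicates. Counted by cells, a Tiparp UMI was present in 85.0% of positive and 81.0% of negative cells of VitA-Col1a1+ DEN+WAD. In VitA-Col1a1+ chow it was 87.9% and 80.1%, and in both libraries the intervals overlapped. In the other libraries the shares were 70.6% and 58.4%, and 81.5% and 71.5%, with intervals apart. Means over the draws were above 1 in all 4 libraries for Arnt and Nqo1 as well, but in VitA-Col1a1+ chow only 13 of 20 draws were above 1 for either gene. Of all genes tested, 65.2% to 85.2% had a lower ratio than Tiparp, so many genes were as far on that side. Thinned to 5000 UMIs the log2 ratio was 0.0498 in VitA-Col1a1+ DEN+WAD and 0.0511 in VitA+Col1a1+ DEN+WAD, and at full depth 0.0174 in the latter. Thinned to 2000 UMIs it was 0.0137 in VitA-Col1a1+ chow, 0.20 in the library labelled VitA-Col1a1- and 0.13 in VitA+Col1a1+ DEN+WAD. Each of these had an interval that held 0.

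For the receptor no library showed a higher level in Cyp1b1-positive cells beyond counting error. Its ratio was 1.03 (0.709 to 1.46) in VitA-Col1a1+ DEN+WAD, 0.530 (0.193 to 1.27) in VitA-Col1a1+ chow, 0.681 (0.486 to 0.939) in the library labelled VitA-Col1a1- and 0.776 (0.484 to 1.18) in VitA+Col1a1+ DEN+WAD, and the mean over 20 draws was under 1 in all 4, at 0.863, 0.491, 0.784 and 0.696. These rest on 7 to 47 Ahr UMIs in the positive cells. Arnt was 1.08, 0.924, 1.14 and 1.45 in the same order, with an interval clear of 1 in the last alone (1.23 to 1.69), and its means over the draws were 1.13, 1.03, 1.13 and 1.28. Nqo1 was 1.33, 0.605, 2.33 and 1.70, clear of 1 in the library labelled VitA-Col1a1- alone (1.28 to 4.2), on 22 and 29 UMIs. Its means over the draws were 1.28, 1.11, 2.53 and 1.27, and in VitA-Col1a1+ chow the draws ran from 0.543 to 2.42, on either side of 1. Cyp1a1 and Ahrr had at most 2 UMIs on either side.

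Past 1.5-fold, with 50 or more UMIs, there were 0 of 4 members in VitA-Col1a1+ DEN+WAD, 0 of 2 in VitA-Col1a1+ chow, 1 higher of 4 (Nqo1) in the library labelled VitA-Col1a1- and 1 higher of 4 (Nqo1) in VitA+Col1a1+ DEN+WAD. The last rests on 14 Nqo1 UMIs and an interval that held 1 (0.917 to 2.91), and over the draws its mean of 1.27 was under 1.5-fold, with an interval above 1 in 0 of 20. The background was 5.48% of genes higher and 4.37% lower in the first, 4.09% and 4.46% in the second, 8.07% and 6.36% in the third and 11.5% and 8.76% in the last. Cell type genes moved with Cyp1b1 in the same comparison. In the order VitA-Col1a1+ DEN+WAD, VitA-Col1a1+ chow, the library labelled VitA-Col1a1- and VitA+Col1a1+ DEN+WAD, 4, 4, 3 and 4 of 8 stellate markers were lower past 1.5-fold and 0 higher. Of the portal fibroblast markers measured, 4 of 8, 2 of 7, 6 of 7 and 5 of 6 were higher, and 1 was lower in the library labelled VitA-Col1a1-. Of the smooth muscle markers measured, 4 of 5, 2 of 5 and 5 of 5 were lower in the first 3, while in VitA+Col1a1+ DEN+WAD 2 of 3 were higher and 1 lower. Of the pathway lists at equal depth, 0 of 7 NRF2 targets were past 1.5-fold in any library, 1 of 8 coregulators was higher in the library labelled VitA-Col1a1- and 0 elsewhere, and 1 of 4 ARNT partners was lower in each library. The log2 ratio of Tiparp was 0.20, 0.49, 0.33 and 0.16 among cells with Lrat, and 0.22, 0.53, 0.33 and 0.20 among cells with no Thy1 or Fbln2, in the same order, and the lowest bound of these 8 intervals was 0.0566. The part of cell type in the Tiparp difference was not tested.

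**Figure D3:**
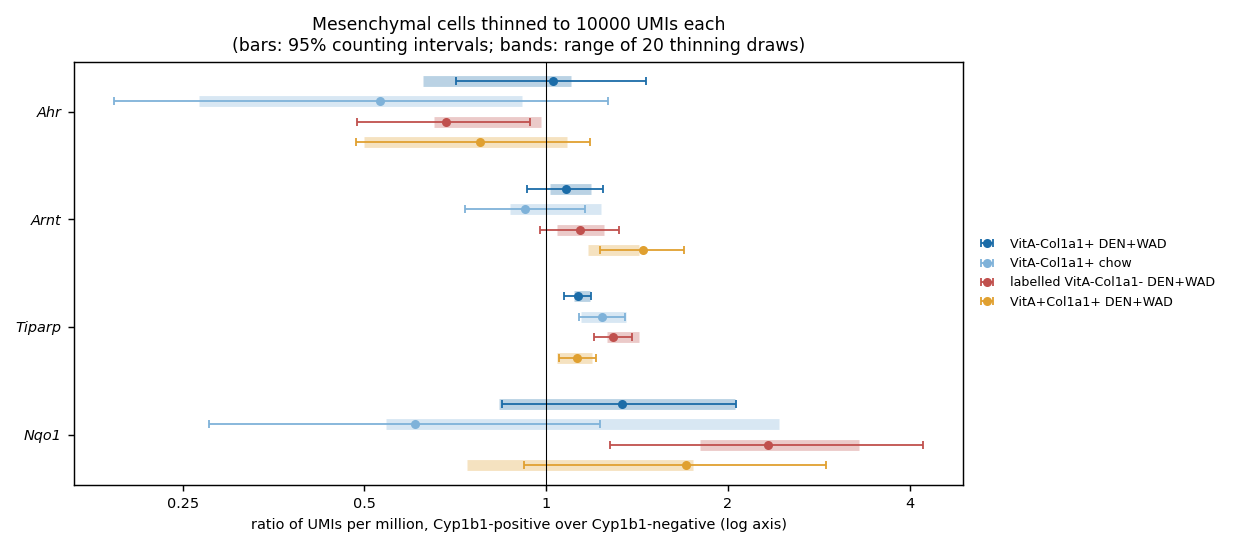
Ratio of CPM in Cyp1b1-positive over Cyp1b1-negative mesenchymal cells, thinned to 10000 UMIs each (x axis, log), for 4 members (y axis) and 4 libraries (colours), with 95% counting intervals and, as bands, the range of 20 thinning draws. Every Tiparp point lies above 1, between 1.13 and 1.29, and 3 of the 4 Ahr points lie below it.

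Cells with 3 or more Cyp1b1 UMIs had more Tiparp and less Lrat than cells with none in all 4 libraries. The Tiparp intervals of that bin and of the bin of 2 UMIs overlapped in all 4, most closely in the library labelled VitA-Col1a1- (230 and 228 CPM) and in VitA+Col1a1+ DEN+WAD (338 and 333 CPM). In VitA-Col1a1+ chow Tiparp was 341, 388, 428 and 505 CPM in cells with 0, 1, 2 and 3 or more Cyp1b1 UMIs (376, 116, 47 and 44 cells). The same bins of VitA-Col1a1+ DEN+WAD had 337, 373, 369 and 420 CPM (1508, 279, 140 and 82 cells). Lrat in the same cells was 904, 479, 383 and 359 CPM. From the first to the last of these bins Tiparp thus rose, with a dip from 373 to 369 CPM, and Lrat fell. Ahr fell over the bins in the library labelled VitA-Col1a1- (14.2, 10.2, 9.48 and 8.41 CPM, with overlapping intervals). It showed no such order in the other libraries, where its intervals were wide. Of 5 early response genes, whose levels track tissue handling as well as signalling, Nr4a1 was higher in Cyp1b1-positive cells of all 4 libraries, at 1.31, 1.29, 1.93 and 1.08 in the order given for the markers. Atf3 was lower in all 4, at 0.95, 0.881, 0.759 and 0.723. The other 3 were mixed, with Fos at 1.07, 0.969, 1.23 and 0.962, Egr1 at 0.989, 1.03, 1.44 and 0.815, and Jun at 0.869, 0.965, 1.04 and 0.761. These genes were chosen after their values were seen, and their part in the Tiparp difference was not tested.

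**Figure D4:**
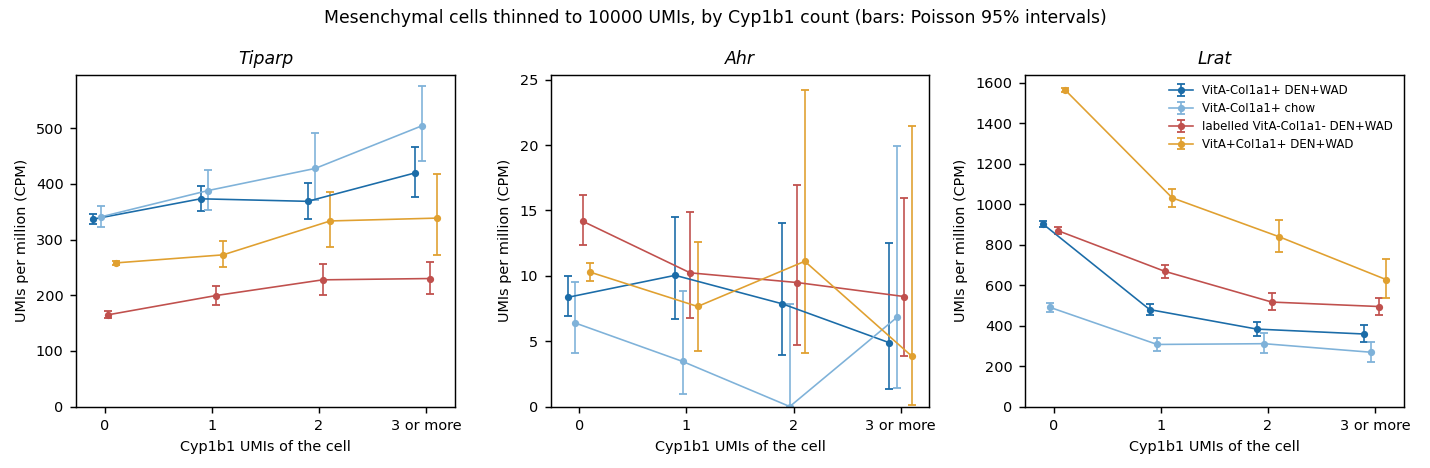
Level of Tiparp, Ahr and Lrat in CPM (y axes) in mesenchymal cells thinned to 10000 UMIs and grouped by their Cyp1b1 UMIs (x axes), for 4 libraries, with Poisson 95% intervals. Tiparp is higher and Lrat lower at 3 or more Cyp1b1 UMIs than at 0 in each library, and the Ahr intervals overlap.

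In endothelial cells Cyp1b1 went with Vwf. At equal depth in VitA-Col1a1+ DEN+WAD, Vwf stood at 752 CPM in 23 Cyp1b1-positive cells and 41.8 CPM in 349 negative cells, an 18.0-fold difference (14.3 to 22.6). In the library labelled VitA-Col1a1- it stood at 836 CPM in 25 cells and 86.5 CPM in 363, a 9.66-fold difference (8.07 to 11.5). Rspo3 was 8.72-fold higher in the positive cells of the latter (1928 against 221 CPM) but at 0.505 of the negative cells in the former, so the positive cells of the 2 libraries differed in this gene. The scavenger receptor Stab2 of sinusoids was lower in both, at 0.761 and 0.387, as was Lyve1 at 0.469 and 0.301. These genes were chosen after their values were seen.

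Other members in these endothelial cells differed between the libraries as well. Nqo1 had 15 UMIs in the 25 positive and 14 in the 363 negative cells of the library labelled VitA-Col1a1-, a 15.6-fold difference (7.0 to 34.8), and 0 and 22 UMIs in VitA-Col1a1+ DEN+WAD. Tiparp was at 1.61 (1.24 to 2.06) in VitA-Col1a1+ DEN+WAD and at 0.791 (0.549 to 1.11) in the library labelled VitA-Col1a1-. Ahr was at 0.830 and 1.17, with intervals that held 1. Of mesenchymal genes, positive cells stood to negative cells at 0.911 for Dcn, 1.37 for Col3a1, 1.42 for Colec11 and 1.25 for Mgp in VitA-Col1a1+ DEN+WAD, and at 1.01, 1.01, 0.923 and 1.16 in the library labelled VitA-Col1a1-, each with an interval that held 1. The class rule had already removed cells with high Dcn, Col3a1 and Colec11. Lrat had 0 and 38 UMIs in the first library and 8 and 142 in the second, and the part of mesenchymal RNA in the Cyp1b1 of these cells was not tested. The positive cells were deeper before thinning, at a median of 27010 against 14031 UMIs in VitA-Col1a1+ DEN+WAD and 12939 against 11507 in the other, and doublets were not tested.

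A split by Stab2, made after seeing the data, was read at full depth. In the library labelled VitA-Col1a1-, the 191 endothelial cells with no Stab2 UMI had 46.1 CPM of Cyp1b1 (35.4 to 58.9) and the 1686 cells with Stab2 had 3.47 (2.55 to 4.62). Nqo1 stood at 22.7 and 3.92 CPM in the same cells. Ahr, at 100 and 86.6 CPM, had overlapping intervals. The Cyp1b1 split was not seen in VitA-Col1a1+ DEN+WAD, where the 426 endothelial cells with Stab2 held 168 of the 172 Cyp1b1 UMIs at 27.3 CPM (23.3 to 31.8) and the 12 cells without it had 4 UMIs at 25.4 CPM (6.93 to 65.1). In VitA+Col1a1+ DEN+WAD the 166 cells with Stab2 had 6.78 CPM (3.25 to 12.5) and the 11 without it 43.2 CPM (14.0 to 101) on 5 UMIs.

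Genes with the most similar pattern were sought over the 9 groups of library and class with 50 or more cells, among 8779 genes. The correlations describe those groups, which share libraries, and carry no test. Nearest to Cyp1b1 were Ackr3, a scavenging chemokine receptor (r = 0.94), Lmcd1 (0.94), the basement membrane collagen Col4a4 (0.93), Pnp (0.93) and Slc50a1 (0.93). Nearest to Ahr were Sptlc2, Icam2 and Scarf1 (0.99 each), of which Icam2 and Scarf1 are endothelial surface genes. Nearest to Arnt were Lsm14a, St3gal1 and Prrc2b (0.99, 0.99 and 0.98), to Tiparp Cdk2ap1, Nr4a1 and Nr4a3 (0.96, 0.96 and 0.95) and to Nqo1 Pde4b, Aldh6a1 and Xdh (0.97, 0.95 and 0.95). Among the members themselves the highest r was that of Arnt with Nqo1 (0.87), Cyp1b1 and Tiparp had 0.47, Cyp1b1 and Ahr −0.14, and Ahr and Tiparp −0.69.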

How the data were processed

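The authors deposited UMI counts, neither normalized nor filtered further here, for each gene in each cell, which they made from 10x libraries with Cell Ranger and the mm10 genome. Per the file headers the version was 3.1.0 for the 4 Col1a1+ libraries and 6.1.2 for the library labelled VitA-Col1a1-, and per the labels 2 kit versions are named. Every barcode was used as a cell, with 500 UMIs as the lowest total, and doublets were not called. UMIs of a gene were summed over the cells of a class, divided by their total and scaled to 1000000 (CPM). Levels carry exact Poisson, ratios conditional binomial and shares Clopper-Pearson 95% intervals, which cover counting error only. A group at 0 was given a floor of 3 UMIs (or 3 cells, for a share) for a bound, with the exact limit beside it. Genes with 50 or more UMIs over both groups were counted as past a fold of 1.5. Thinning drew 10000 UMIs per cell without replacement (seed 7), and shallower cells were left out, which kept 9097 of 10209, 2009 of 2179, 237 of 244, 583 of 614 and 1984 of 3692 mesenchymal cells in the order of libraries. Ratios were tested on simulated counts. Thinning was tested on the real mesenchymal cells of VitA-Col1a1+ DEN+WAD, against the number of positive cells expected from drawing without replacement. Every member was named, with up to 5 genes of the pathway lists per direction and comparison past 1.5-fold (1 such result is not reported here), and the 5 or 3 genes of most similar pattern by Pearson's r of log2(CPM + 1) among those reaching 20 CPM. The members and lists were chosen with earlier results of these data known. The tools were pandas 2.3.3, scipy 1.17.1 and numpy 2.4.6 under Python 3.11.15, matplotlib 3.10.9 for plots, and R 4.3.3 with edgeR 4.0.16, used for TMM factors alone. Locations are from GENCODE M21 and the windows from RefSeq.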

Additional observations from a re-analysis of the deposited data

Results flagged for a closer look

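Cyp1b1 in mesenchymal cells went opposite ways with DEN+WAD in the 2 gates. In VitA-Col1a1+ cells it stood at 0.688 of the chow level, while in VitA+Col1a1+ cells it went from 0 UMIs to 5.27 CPM. Portal fibroblast and smooth muscle markers also rose with DEN+WAD in VitA+ cells and fell in VitA- cells, and the part of cell makeup was not tested. Each side rests on 1 library per group, and the difference was not tested.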

How the results depend on the processing

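Of 308 values under an alternative, over 42 results, 261 stayed within counting error of the reported value, 37 moved beyond it and 10 changed sign. Log2 ratios of Cyp1b1 kept their direction. That of DEN+WAD over chow in VitA- cells (−0.54) was −0.68 as a mean of per-cell CPM and −0.39 with TMM factors, and the bound in VitA+ cells (3.36) was 2.95 as a mean over cells. The ratio of gates in DEN+WAD (3.18) was 3.02 over all cells, 3.38 as a mean over cells and 3.01 with TMM. The count of other members past 1.5-fold over 4 comparisons (3) was 5 over all cells, which include the endothelial ones. Ahr between the gates of DEN+WAD turned to 1.01 over all cells. With TMM, Tiparp of DEN+WAD over chow turned to 0.18 in VitA+ and 0.0313 in VitA- cells. With TMM the log2 ratio of Ahr of DEN+WAD over chow in VitA- cells passed 1.5-fold (0.72), and those of Nqo1 between the gates fell short of it (0.54 in DEN+WAD, 0.53 in chow). In VitA-Col1a1+ DEN+WAD the equal-depth Tiparp ratio (0.17) was 0.0498 at 5000 and 0.35 at 2000 UMIs, and that of Nqo1 (0.41) turned to −0.56 when 2 Cyp1b1 UMIs were asked for. Elsewhere Arnt turned to −0.26 at 2000 UMIs in VitA+Col1a1+ DEN+WAD and to 0.41 with overlaps kept in VitA-Col1a1+ chow, and Nqo1 turned to 0.41, 0.98 and 0.31 (5000 UMIs, 2000 UMIs, overlaps kept) in VitA-Col1a1+ chow and to −0.30 at 2000 UMIs in the library labelled VitA-Col1a1-. The cause of these was not tested. Under every alternative run the equal-depth log2 ratio of Tiparp stayed above 0 in all 4 libraries, the lowest being 0.0137 at 2000 UMIs in VitA-Col1a1+ chow, with intervals that held 0 in some of them. TMM shifted all log2 ratios by 0.23 and 0.15 (DEN+WAD over chow, VitA+ and VitA-), and by −0.17 and −0.09 (VitA- over VitA+, DEN+WAD and chow), which took the share of higher genes among those past 1.5-fold from 48.0% to 73.2%, 33.0% to 50%, 70.7% to 56.1% and 63.5% to 56.9%. No paired analysis was possible because each group holds 1 library and no test was run. Depth limits Cyp1a1 and Ahrr, with 38 and 36 UMIs in all cells, and the equal-depth ratios of Ahr and Nqo1, and the chow libraries hold 259 and 668 cells.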

Other observations

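Of the Cyp1b1 UMIs of VitA-Col1a1+ chow, 44 lay in a single cell outside the 3 classes, more than in any mesenchymal cell of that library (at most 22); this cell was chosen after its values were seen. The cell held 102759 UMIs, among them 315 of Col1a1, 146 of Col3a1 and 844 of Fn1, and 283 of the portal fibroblast markers, but 0 of Lrat. It had 8 UMIs of Arnt, 6 of Tiparp and 0 of Ahr, Ahrr, Cyp1a1 and Nqo1. It fell short of the mesenchymal rule because Dcn gave 20 UMIs and Colec11 1 beside those of Col3a1.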
